A study of Mus musculus with 9 samples.

Results

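The genes described here are Wnt2, Wnt9b, Wnt9a and Rspo3, secreted ligands made around the central vein of the liver lobule. They were taken by name, and all 4 were present among the 28517 genes of the deposited table. All 9 libraries come from liver of db/db mice, whose leptin receptor does not signal and which are a model of obesity with diabetes. Vehicle mice received PBS, and the other groups received FGF19WT or FGF19ΔKLB, each for 12 weeks, with 3 libraries per group. FGF19 is a gut hormone that acts on hepatocytes through an FGF receptor and its co-receptor beta-klotho (KLB), and the series title concerns its tumour risk. The table's columns code the FGF19ΔKLB group as F19_HBS, and the labels say neither what HBS stands for nor which change that protein carries. The labels give no dose, route, age or sex, and do not say that the libraries of a group came from separate animals, so p-values measure the spread between these samples, which may be technical.

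Wnt ligands bind a Frizzled receptor together with Lrp5 or Lrp6 and so keep beta-catenin from being degraded. R-spondins bind Lgr receptors and remove the ligases Rnf43 and Znrf3, which otherwise clear Frizzled from the cell surface. In liver, endothelial cells of the central vein make Wnt2, Wnt9b and Rspo3, and stellate cells add Rspo3. The hepatocytes next to the vein answer with glutamine synthetase (Glul), which joins ammonia to glutamate, and with Axin2, a scaffold of the beta-catenin destruction complex that the pathway itself turns on. Glul and Axin2 therefore served as readouts in the same libraries.

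On GRCm38, Wnt2 lies on the minus strand at chr6:17988940-18030585 and Wnt9b on the minus strand at chr11:103727364-103749821. Wnt9a lies on the plus strand at chr11:59306928-59333552, and Rspo3 on the minus strand at chr10:29452416-29535867. Glul lies on the plus strand at chr1:153899944-153909723 and Axin2 on the plus strand at chr11:108920349-108950783. Values are per whole gene. Axin2 overlaps the antisense gene Gm11670, Rspo3 overlaps Gm20276 on its own strand and the antisense Gm48159, and Glul overlaps Teddm2 on the other strand and Mir8114. Whether counting used strand is not given in the sources used here, so reads of these overlapping genes cannot be told apart from those of Axin2, Rspo3 and Glul.

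The sequence just upstream of the gene start is shown for Wnt2, Wnt9b and both readouts. Like Wnt9a and Rspo3, these ligands were scarce where the readouts were highest. The windows come from RefSeq on GRCm38.p6, end at the base before the gene start that lies further upstream, RefSeq's or the table's, and are written in the direction of transcription. For Glul that is RefSeq's start, and 15 bases separate the window from the start in the table. Distances are counted from the end of each window. Capitals mark matches, on either strand, to the TCF/LEF core CTTTGA, the GATA site AGATAA, the CCAAT box or the ETS core GGAAG.
Wnt2: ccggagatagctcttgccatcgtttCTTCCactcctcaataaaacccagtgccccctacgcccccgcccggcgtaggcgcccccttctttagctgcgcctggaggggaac
Wnt9b: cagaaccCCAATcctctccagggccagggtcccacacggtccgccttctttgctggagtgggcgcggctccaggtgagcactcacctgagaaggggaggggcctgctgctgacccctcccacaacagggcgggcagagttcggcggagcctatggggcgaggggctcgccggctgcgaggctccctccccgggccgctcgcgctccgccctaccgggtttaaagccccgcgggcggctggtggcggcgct
Glul: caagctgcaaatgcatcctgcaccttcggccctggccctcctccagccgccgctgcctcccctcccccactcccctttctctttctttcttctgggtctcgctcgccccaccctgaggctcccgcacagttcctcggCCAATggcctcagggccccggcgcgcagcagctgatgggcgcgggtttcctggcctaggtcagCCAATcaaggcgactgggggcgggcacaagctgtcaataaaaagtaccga
Axin2: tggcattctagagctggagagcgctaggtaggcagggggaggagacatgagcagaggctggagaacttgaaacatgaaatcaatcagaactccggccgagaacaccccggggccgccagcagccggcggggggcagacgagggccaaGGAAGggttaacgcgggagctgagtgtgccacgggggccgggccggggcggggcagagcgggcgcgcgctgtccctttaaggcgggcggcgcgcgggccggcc
The Wnt2 window holds 110 bases (chr6:18030586-18030695, minus strand) and the Wnt9b window 250 bases (chr11:103749822-103750071, minus strand). The Glul window (chr1:153899679-153899928) and the Axin2 window (chr11:108920099-108920348) hold 250 bases each on the plus strand. Wnt9b had 1 CCAAT match, 243 bases upstream, and Glul had 2, at 113 and 50 bases. Wnt2 had 1 ETS match, on the minus strand 85 bases upstream, and Axin2 had 1, on the plus strand 103 bases upstream. Neither the TCF/LEF core nor the GATA site occurred in these windows or in the 248 bases upstream of Wnt9a. Of 32851 windows of 250 bases, 13.8% held the TCF/LEF core, 9.99% the GATA site, 33.8% a CCAAT box and 64.1% the ETS core. The Wnt2 window, at 110 bases, is shorter and has fewer positions for a match.

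Count totals ran from 65.1 to 73.3 M per library, and the excess of low counts at multiples of 4 put 1 read pair at about 4 counts, so 16.3 to 18.3 M pairs stood behind each library. Albumin (Alb), made by hepatocytes, stood at 78702 to 248925 CPM (counts scaled to a common library size with TMM factors). FGF19WT libraries 2 and 3 stood apart from the other 7: they lay at 130 and 170 on the first principal component, which held 48.9% of the variance, against -64 to -7.9. Both lay below the other 7 libraries in 19% of the 18142 genes tested and above them in 18.4%. Of 11 hepatocyte markers, 6 lay below the other 7 libraries in both, among them Cps1 of the urea cycle, at 40.1 and 32.9 CPM against 1155 to 2838 CPM. The tests of the ligands and readouts, and the values of r, are therefore given with and without these 2 libraries.

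All 4 ligands were scarce. Per length, Rspo3 had the highest mean over the 9 libraries, at 0.557 FPKM, followed by Wnt2 at 0.228, Wnt9a at 0.19 and Wnt9b at 0.0816 FPKM. Axin2 averaged 4.93 FPKM and Glul 1020.6 FPKM, means set mostly by FGF19WT libraries 2 and 3. Axin2 stood at 22.6 and 17.6 FPKM there and at 0.302 to 1.05 FPKM elsewhere. Glul stood at 4666 and 3631 FPKM there and at 49.6 to 283 FPKM elsewhere. Rspo3 lay above Axin2 in each vehicle library and in FGF19WT library 1, and below it in each FGF19ΔKLB library. The order of Wnt2 and Wnt9a depended on the group. In vehicle Wnt2 (0.369 to 0.421 FPKM) lay above Wnt9a (0.198 to 0.264 FPKM) in all 3 libraries, and with FGF19ΔKLB Wnt9a (0.188 to 0.349 FPKM) lay above Wnt2 (0.062 to 0.24 FPKM) in each library. Rspo3 exceeded Wnt2 in 8 of 9 libraries and Wnt9a exceeded Wnt9b in 8 of 9, while Wnt2 exceeded Wnt9a in 5 of 9. In vehicle each ligand lay wholly above the next in this order. With FGF19WT the ranges of all 3 neighbouring pairs overlapped. A floor of 12 counts, or 3 read pairs, corresponds to 0.154 to 0.197 CPM, and several ligand values lay at or below it.

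Wnt2, a ligand that drives beta-catenin signalling in hepatocytes, stood at 0.975, 1.05 and 0.844 CPM in vehicle libraries 1, 2 and 3. The FGF19WT libraries 1, 2 and 3 held 1.1, 0.0987 and 0 CPM, and the gene stood at 0.176, 0.613 and 0.262 CPM with FGF19ΔKLB. FGF19WT library 1 thus had the highest Wnt2 value of all 9 libraries, with 75 counts against 73 and 72 in vehicle libraries 1 and 2. Their counting intervals overlapped, at 0.659 to 1.72, 0.58 to 1.54 and 0.625 to 1.67 CPM, so this rank is within counting error. FGF19WT libraries 2 and 3 and FGF19ΔKLB library 1, with 8, 0 and 12 counts, lay at or below the floor and cannot be ordered. The count of 0 allows up to 0.174 CPM at the floor. All 3 FGF19ΔKLB libraries lay below all 3 vehicle libraries.

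Wnt9b, the second Wnt of the central vein endothelium, stood at 0.788, 0.893 and 0.294 CPM in vehicle. The FGF19WT libraries held 0.967, 0.0494 and 0.0581 CPM, and the FGF19ΔKLB libraries 0, 0.284 and 0.377 CPM. FGF19WT library 1 again had the highest value of the 9, with 66 counts against 59 and 61 in vehicle libraries 1 and 2, within counting error. The 3 lowest libraries were FGF19WT 2 and 3, with 4 counts each, and FGF19ΔKLB 1, with 0 counts, and all groups overlapped.

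Wnt9a, a close relative of Wnt9b, stood at 0.708, 0.747 and 0.896 CPM in vehicle and at 0.557, 0.0987 and 0.0581 CPM with FGF19WT. With FGF19ΔKLB it stood at 1.35, 1.18 and 0.803 CPM, so that this group held the highest levels and overlapped vehicle. All 3 FGF19WT libraries lay below all libraries of both other groups, with library 1 close under the vehicle range and libraries 2 and 3 far below it.

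Rspo3, the R-spondin of the central vein, stood at 4.85, 3.0 and 2.78 CPM in vehicle. It stood at 2.20, 0.271 and 0.0581 CPM with FGF19WT and at 1.58, 0.553 and 1.75 CPM with FGF19ΔKLB. The 3 vehicle libraries were the 3 highest, so neither treated group overlapped them, and FGF19WT libraries 2 and 3, with 22 and 4 counts, were the lowest.

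The readouts took another order. Glul stood at 1000, 659 and 549 CPM in vehicle, at 185, 14770 and 12685 CPM with FGF19WT, and at 255, 224 and 364 CPM with FGF19ΔKLB. Axin2 stood at 6.18, 5.08 and 3.15 CPM in vehicle, at 2.40, 118 and 102 CPM with FGF19WT, and at 3.84, 1.90 and 3.44 CPM with FGF19ΔKLB. FGF19WT libraries 2 and 3 were the highest for both readouts and among the lowest 3 for each of the 4 ligands. FGF19WT library 1 was the lowest of 9 for Glul. Its Wnt2 and Wnt9b values were the highest of 9, but within counting error of vehicle libraries 1 and 2.

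**Figure D1:**
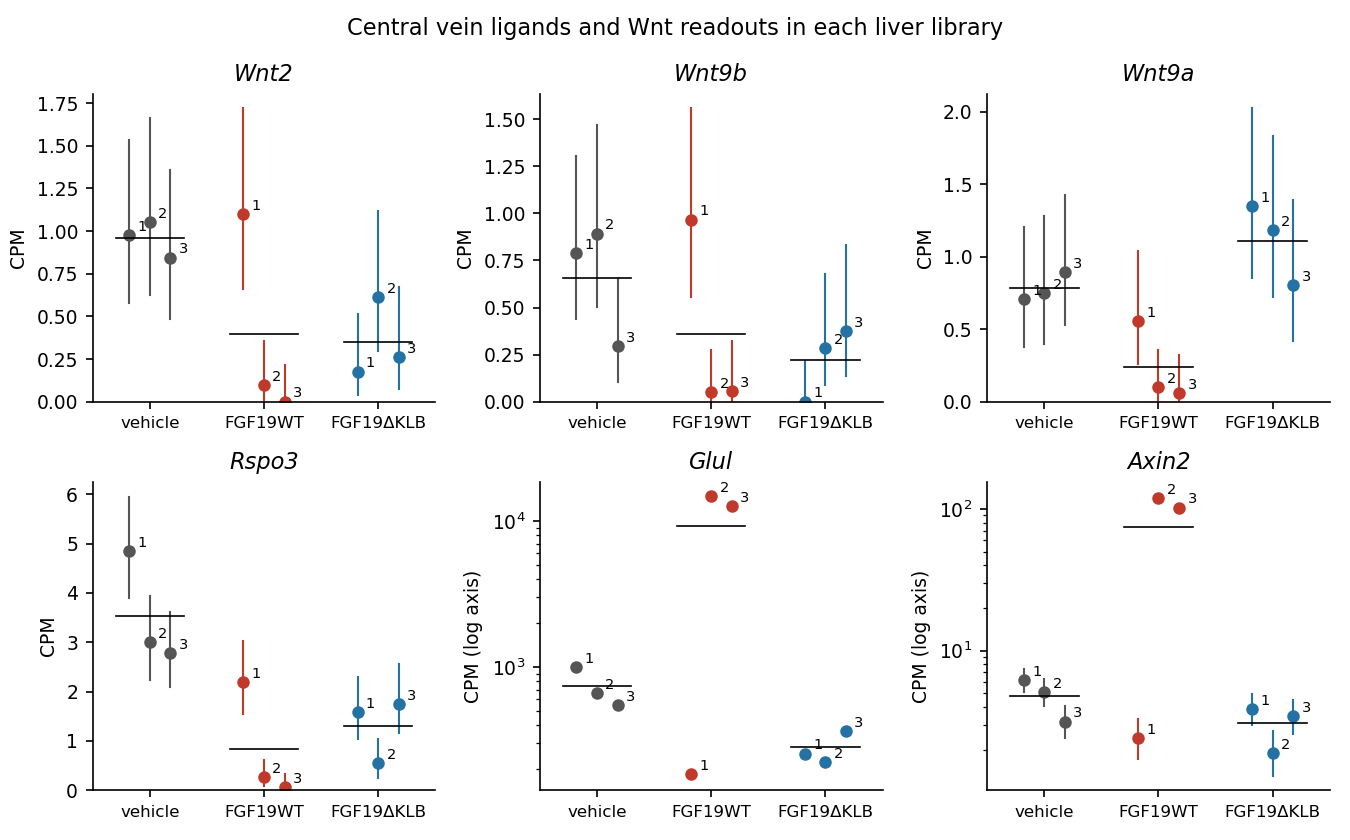
Levels in CPM of the 4 ligands (linear axes) and of Glul and Axin2 (log axes) in each library, with the replicate number beside each point, bars for 95% Poisson counting intervals at 4 counts per read pair and a line for the group mean. FGF19WT libraries 2 and 3 lie at 0 to 0.271 CPM for every ligand, while they hold 12685 and 14770 CPM of Glul.

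FGF19WT against vehicle compares the native hormone with PBS. All 4 ligands had lower fitted levels in FGF19WT, with a median log2 difference of -1.49 against -0.0049 over all genes tested, but none of the 4 passed edgeR's quasi-likelihood test at an adjusted p of 0.05, where 0.11% of all genes did. None had an unadjusted p under 0.05 either, a level that 18.8% of all genes reached, limma called none of the 4, and DESeq2 called neither Wnt9a nor Wnt9b and gave no p for Wnt2 or Rspo3. Rspo3 had a log2 difference of -2.07 (SE 1.06, adjusted p = 0.323, edgeR) and Wnt9a one of -1.72 (SE 0.76, adjusted p = 0.269). For these 2 the groups did not overlap, as for 11.6% of all genes in that direction. Wnt2 had a log2 difference of -1.26 (SE 1.27, adjusted p = 0.600) and Wnt9b one of -0.88 (SE 1.38, adjusted p = 0.748), with overlapping groups.

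The calls differed with the FGF19WT libraries used. Without FGF19WT library 1, edgeR called Wnt9a (log2 difference -3.29, adjusted p = 0.00289), Rspo3 (-4.40, adjusted p = 0.00491) and Wnt2 (-4.19, adjusted p = 0.0239) lower, while Wnt9b missed the threshold (-3.58, adjusted p = 0.092). That fit rests on 2 libraries chosen with their values known, and it called 27.4% of 19025 genes, with 14.3% of the 19025 called lower. Without FGF19WT libraries 2 and 3 instead, library 1 alone gave 0.20 for Wnt2, 0.56 for Wnt9b, -0.49 for Wnt9a and -0.69 for Rspo3, and none was called, where 0.1% of all genes were. Glul was 12.5-fold higher in the fit over all libraries (log2 difference 3.65, SE 1.16, adjusted p = 0.162) and Axin2 15.5-fold higher (3.95, SE 1.09, adjusted p = 0.135), with overlapping groups. Without libraries 2 and 3 the sign of both turned, to -1.99 and -1.0. DESeq2's Wald test called both higher over all 9 libraries, with adjusted p = 0.00407 for Glul and 0.000817 for Axin2.

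FGF19ΔKLB against vehicle compares the altered protein with PBS. Wnt2 and Rspo3 lay below vehicle in all 3 FGF19ΔKLB libraries, by a log2 difference of -1.45 each, or about 2.7-fold, and Glul did so by -1.39. Groups failed to overlap in that direction in 12.2% of all genes. None of the 4 ligands passed the test (adjusted p = 0.840 for Wnt2, 0.788 for Rspo3, 0.845 for Wnt9b and 0.919 for Wnt9a, edgeR), which 0.011% of all genes did, and none had an unadjusted p under 0.05, against 8.35% of all genes. Limma called none of the 4, and DESeq2 neither Wnt9a nor Wnt9b. DESeq2 gave no p for Wnt2 or Rspo3. Wnt9b had a log2 difference of -1.58 (SE 1.42) and Wnt9a one of 0.50 (SE 0.73, 95% interval -1.16 to 2.17).

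That error takes in the spread between the FGF19WT libraries. In a fit of only the 6 vehicle and FGF19ΔKLB libraries, Rspo3 kept its log2 difference of -1.45 with an SE of 0.46 (adjusted p = 0.171, edgeR), and Wnt2 its -1.45 with an SE of 0.52 (adjusted p = 0.220). Glul had -1.39 with an SE of 0.27 and an adjusted p of 0.0579, and Axin2 -0.65 with an adjusted p of 0.394. None of the 4 ligands was called there, where 1.68% of 17340 genes were. The 2 ligands with an unadjusted p under 0.05 stood against 17.3% of all genes.

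FGF19ΔKLB against FGF19WT compares the proteins with each other. Wnt9a was 4.67-fold higher with FGF19ΔKLB (log2 difference 2.22, SE 0.77, adjusted p = 0.315, edgeR), with all 3 libraries above all FGF19WT libraries, as in 7.15% of all genes. It was the sole ligand with an unadjusted p under 0.05, against 12.5% of all genes. No gene of the 18142 passed the adjusted threshold in this comparison with edgeR (0%). Limma called none of the 4 ligands, and DESeq2 neither Wnt9a nor Wnt9b, giving no p for Wnt2 or Rspo3. Rspo3 had a log2 difference of 0.62 (SE 1.03), Wnt2 one of -0.18 (SE 1.27) and Wnt9b one of -0.70 (SE 1.41), all smaller than their errors. Without FGF19WT library 1, edgeR called Wnt9a (3.79, adjusted p = 0.00194) and Rspo3 (2.95, adjusted p = 0.0262) higher with FGF19ΔKLB, as 10.9% of all genes were. Without FGF19WT libraries 2 and 3 instead, the log2 difference of Wnt9a was 0.99 (SE 0.52, adjusted p = 0.895), that of Wnt2 -1.65, of Wnt9b -2.14 and of Rspo3 -0.77. None of the 4 was called there, where 0.0352% of all genes were.

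Whether the ligands went along with the readouts was asked over the 7 libraries other than FGF19WT 2 and 3, since those 2 form a cluster of their own. Rspo3 had a Pearson r of 0.75 with Glul (exact permutation p = 0.0375, adjusted over 8 relations p = 0.15) and of 0.81 with Axin2 (exact p = 0.0238, adjusted p = 0.15), with Spearman's rho of 0.79 (exact p = 0.0480, adjusted p = 0.384) and 0.68 (exact p = 0.110, adjusted p = 0.438). Neither relation passed the adjusted threshold. Leaving out the 2 libraries farthest from the median of Rspo3, vehicle 1 and FGF19ΔKLB 2, gave 0.68 for Glul and 0.21 for Axin2, over 5 libraries and a narrower range of Rspo3. Over all 9 libraries the sign was the opposite, as a description of a pooled cluster: r was -0.702 and -0.755 for Rspo3, -0.721 and -0.793 for Wnt2, -0.400 and -0.494 for Wnt9b, and -0.927 and -0.946 for Wnt9a, with Glul and Axin2 in turn.

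The 7 libraries also differ by treatment. Within vehicle and within FGF19ΔKLB, Rspo3 put the 3 libraries in the same order as Glul in CPM. In FPKM the vehicle order differed: libraries 2 and 3 held 0.880 and 0.887 of Rspo3 but 180 and 163 of Glul. The counting intervals of Rspo3 overlapped between these 2 libraries, at 2.24 to 3.94 and 2.09 to 3.62 CPM. They also overlapped between FGF19ΔKLB libraries 1 and 3, at 1.04 to 2.30 and 1.15 to 2.55 CPM, so the order is within counting error. Deviations from the means of these 2 groups over their 6 libraries, a measure added after the data were seen, gave Rspo3 an r of 0.77 with Glul (exact permutation within groups p = 0.111, adjusted over 8 relations p = 0.296) and of 0.88 with Axin2 (exact p = 0.0556, adjusted p = 0.296). Spearman's rho on ranks within groups was 1 (exact p = 0.0556, adjusted p = 0.444) and 0.75 (exact p = 0.278, adjusted p = 0.741). None of the 8 relations passed the adjusted threshold on this measure. As even a rho of 1 had an exact p of 0.0556, no relation could have passed on ranks. For r, the few arrangements of 3 libraries within a group left little room to pass. This outcome therefore does not decide whether the ligands went along with the readouts.

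The Wnt ligands had weaker relations. Wnt2 had an r of 0.36 with Glul and 0.07 with Axin2 (exact p = 0.414 and 0.902), with rho of 0.11 and 0.04 (exact p = 0.840 and 0.963). Wnt9b had 0.35 and 0.10 (exact p = 0.485 and 0.830), with rho of 0.14 and 0.18 (exact p = 0.783 and 0.713). For Wnt9a the r was negative, at -0.25 and -0.21 (exact p = 0.569 and 0.653), with rho of -0.18 and -0.21 (exact p = 0.713 and 0.662). Adjusted over the 8 relations, these 6 values of r had p of 0.870 to 0.902, and their values of rho 0.960 to 0.963. Without the 2 libraries farthest from the ligand's median, Wnt2 gave 0.29 and 0.58, Wnt9b 0.77 and 0.89, and Wnt9a 0.54 and 0.25, none of which passed the adjusted threshold.

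**Figure D2:**
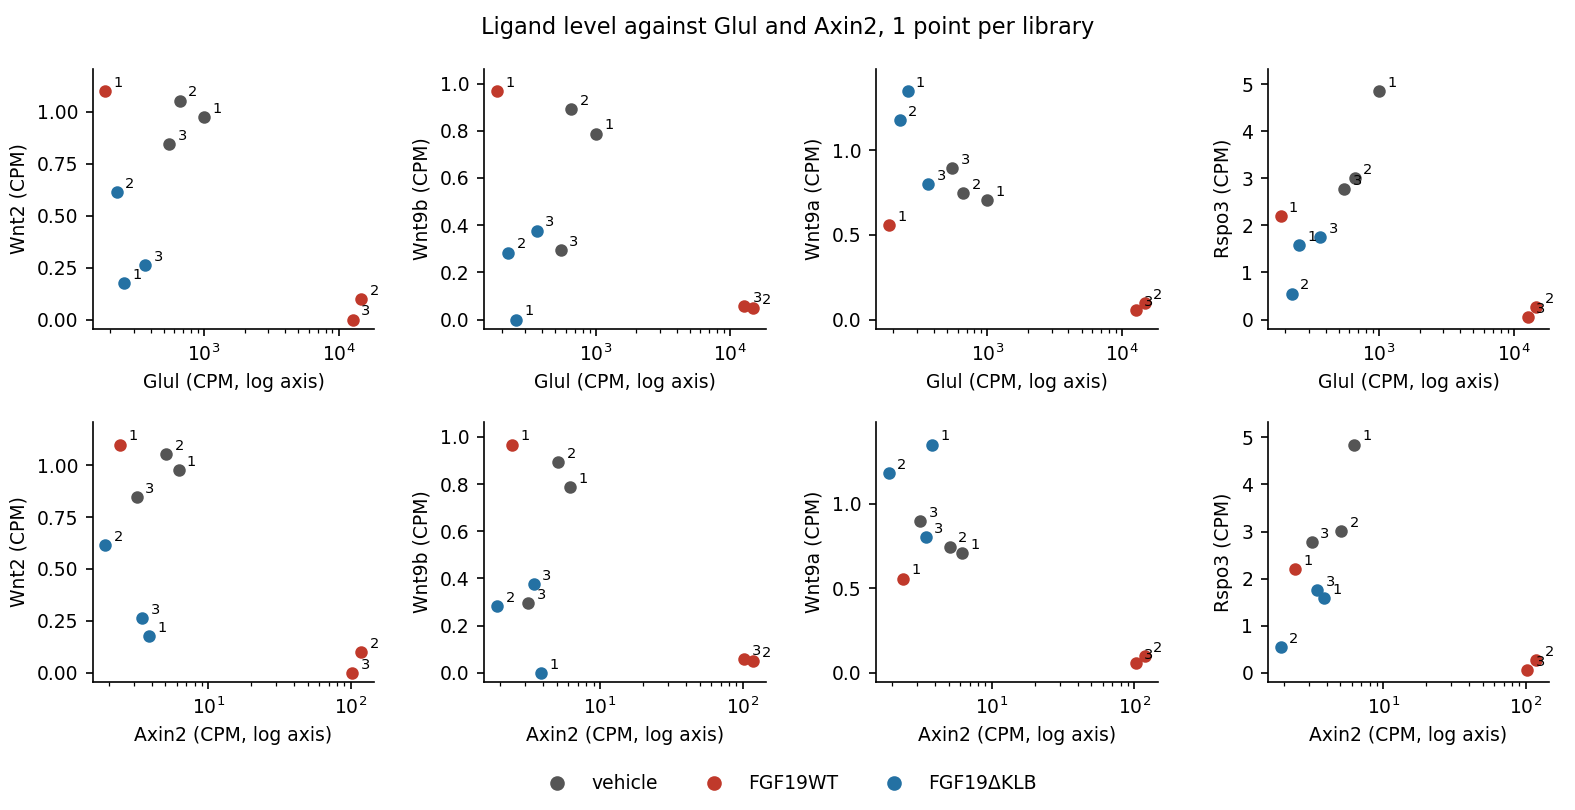
Each ligand (CPM, linear axis) against Glul (upper row) and Axin2 (lower row, both CPM on log axes), 1 point per library with its replicate number, coloured by group. FGF19WT libraries 2 and 3 sit alone at the lower right of every panel, and among the other 7 the points of Rspo3 rise most evenly, from 0.553 to 4.85 CPM.

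Of 16 other Wnt genes on the list, 12 were in the table and 6 passed the filter on low counts, and of 3 other R-spondins Rspo1 was there. None passed the test in any of the 3 comparisons, and none in the fits of 6 libraries, which called 0.00574% of all genes for FGF19WT against vehicle and 0.00584% for FGF19ΔKLB against FGF19WT. Wnt5b, a ligand that signals mostly without beta-catenin, had the smallest p among them. It stood at 6.66, 8.52 and 8.10 CPM in vehicle, at 1.86, 1.64 and 1.23 CPM with FGF19WT and at 1.67, 3.07 and 3.59 CPM with FGF19ΔKLB. Unlike the 4 ligands above, its level in FGF19WT library 1 was close to those of libraries 2 and 3. As for Rspo3, neither treated group overlapped vehicle. The log2 difference was -2.30 for FGF19WT (SE 0.33, adjusted p = 0.0605) and -1.48 for FGF19ΔKLB (SE 0.32, adjusted p = 0.243), both against the same vehicle libraries. Without FGF19WT 2 and 3 the value for FGF19WT was -2.06.

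Wnt5a, another such ligand, peaked in FGF19WT libraries 2 and 3 with 6.34 and 7.84 CPM, against 1.28 to 2.66 CPM in the other 7 (log2 difference of FGF19WT against vehicle 1.46, SE 0.56, adjusted p = 0.212, and -0.32 without those libraries). Wnt6 was detected at 0.938 and 0.697 CPM in the same libraries and at 0.19 CPM in FGF19WT library 1, and had 0 counts in all vehicle and FGF19ΔKLB libraries. Wnt2b ranged from 0.543 to 1.44 CPM, Wnt4 from 0.37 to 3.25 CPM and Rspo1 from 0 to 0.703 CPM, each with overlapping groups. Wls, which carries Wnt proteins to the cell surface, held 0.605 and 0.421 CPM in libraries 2 and 3 of FGF19WT, against 1.75 to 5.65 CPM in the others (log2 difference -1.92, SE 0.63, adjusted p = 0.170, and -0.85 without them). Porcn, which attaches their lipid, ranged from 1.16 to 2.30 CPM with FGF19WT libraries 2 and 3 inside that range.

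Of 15 Frizzled, Lrp and Lgr receptors, 12 passed the filter. In the 3 comparisons 0 of them were called, where edgeR called 0.11%, 0.011% and 0% of all genes. The median log2 difference of FGF19WT against vehicle was 0.10, and 0.08 without FGF19WT 2 and 3. Lgr5, an R-spondin receptor that is itself a beta-catenin target, reached 55.8 and 64.7 CPM in FGF19WT 2 and 3, against 1.69 to 4.25 CPM in the others. Lgr4, another R-spondin receptor, ranged from 24.8 to 39.3 CPM over all 9. Of the 12, 3 lay above the other 7 libraries in both FGF19WT 2 and 3, where 18.4% of all genes did. Besides Lgr5 these were Lrp5, at 91.1 and 62.5 CPM against 19.9 to 52.9 CPM, and Fzd6, at 6.16 and 7.95 CPM against 2.93 to 5.04 CPM. Below the other 7 lay 2 of the 12, where 19% of all genes did. Fzd4 had 9.65 and 7.02 CPM against 25.3 to 47.0 CPM, and Lrp6 had 34.4 and 31.9 CPM against 41.7 to 56.9 CPM. The ligases that R-spondins act on were higher in FGF19WT 2 and 3: Rnf43 stood at 123 and 158 CPM against 13.5 to 20.5 CPM, and Znrf3 at 30.9 and 30.5 CPM against 4.12 to 6.35 CPM. Both had adjusted p above the threshold for FGF19WT against vehicle (0.128 and 0.140), and without FGF19WT 2 and 3 their log2 differences were -0.04 and -0.27.

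Of 13 secreted inhibitors, 11 were in the table and 5 passed the filter. None was called, where edgeR called 0.11%, 0.011% and 0% of all genes in the 3 comparisons. Notum, an enzyme that strips the lipid from Wnt proteins, reached 236 and 329 CPM in FGF19WT 2 and 3, against 13.3 to 23.2 CPM in the others (log2 difference 3.36, SE 0.79, adjusted p = 0.125, and 0.17 without those libraries). Dkk3 stood at 22.0 and 25.4 CPM against 1.58 to 3.46 CPM. Frzb, a decoy for Wnt proteins, went the other way, with 0.333 and 0 CPM against 0.704 to 2.24 CPM.

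Of 13 feedback and target genes, 12 lay above the other 7 libraries in both FGF19WT 2 and 3, where 18.4% of all genes did, and the 13th, Nkd2, lay below. The list includes Axin2, Lgr5, Notum, Rnf43 and Znrf3, which are also described above. Nkd1, a feedback inhibitor, had 326 and 379 CPM against 1.75 to 4.42 CPM, and Apcdd1 at 35.3 and 12.4 CPM against 0 to 0.179 CPM. The median log2 difference of the list for FGF19WT against vehicle was 3.37, and -0.27 without FGF19WT 2 and 3. Over 9 libraries edgeR called 0 of the 13 in this comparison, and 0.11% of all genes. The beta-catenin gene itself, Ctnnb1, had 255 and 204 CPM in FGF19WT 2 and 3, against 121 to 144 CPM in the others (log2 difference 0.65, SE 0.21, adjusted p = 0.162, and 0.18 without those libraries). These lists were chosen with earlier results of the same libraries known, so their direction is no independent evidence.

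With FGF19ΔKLB, the 13 pericentral hepatocyte genes, Glul among them, all had lower fitted levels than vehicle, with a median log2 difference of -1.13 against 0.0018 over all genes. In the fit of 6 libraries, which called 1.68% of all genes, 3 of the 13 fell: Slc22a3, a cation transporter (-1.95, SE 0.23, adjusted p = 0.0155), Slc1a2, a glutamate transporter (-2.18, SE 0.30, adjusted p = 0.0275) and Oat, ornithine aminotransferase (-2.18, SE 0.35, adjusted p = 0.0430). None of the 3 was called over 9 libraries. The feedback and target genes had a median of -0.30 in the same comparison over 9 libraries, with 5 of 13 higher and 8 lower in fitted level.

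**Figure D3:**
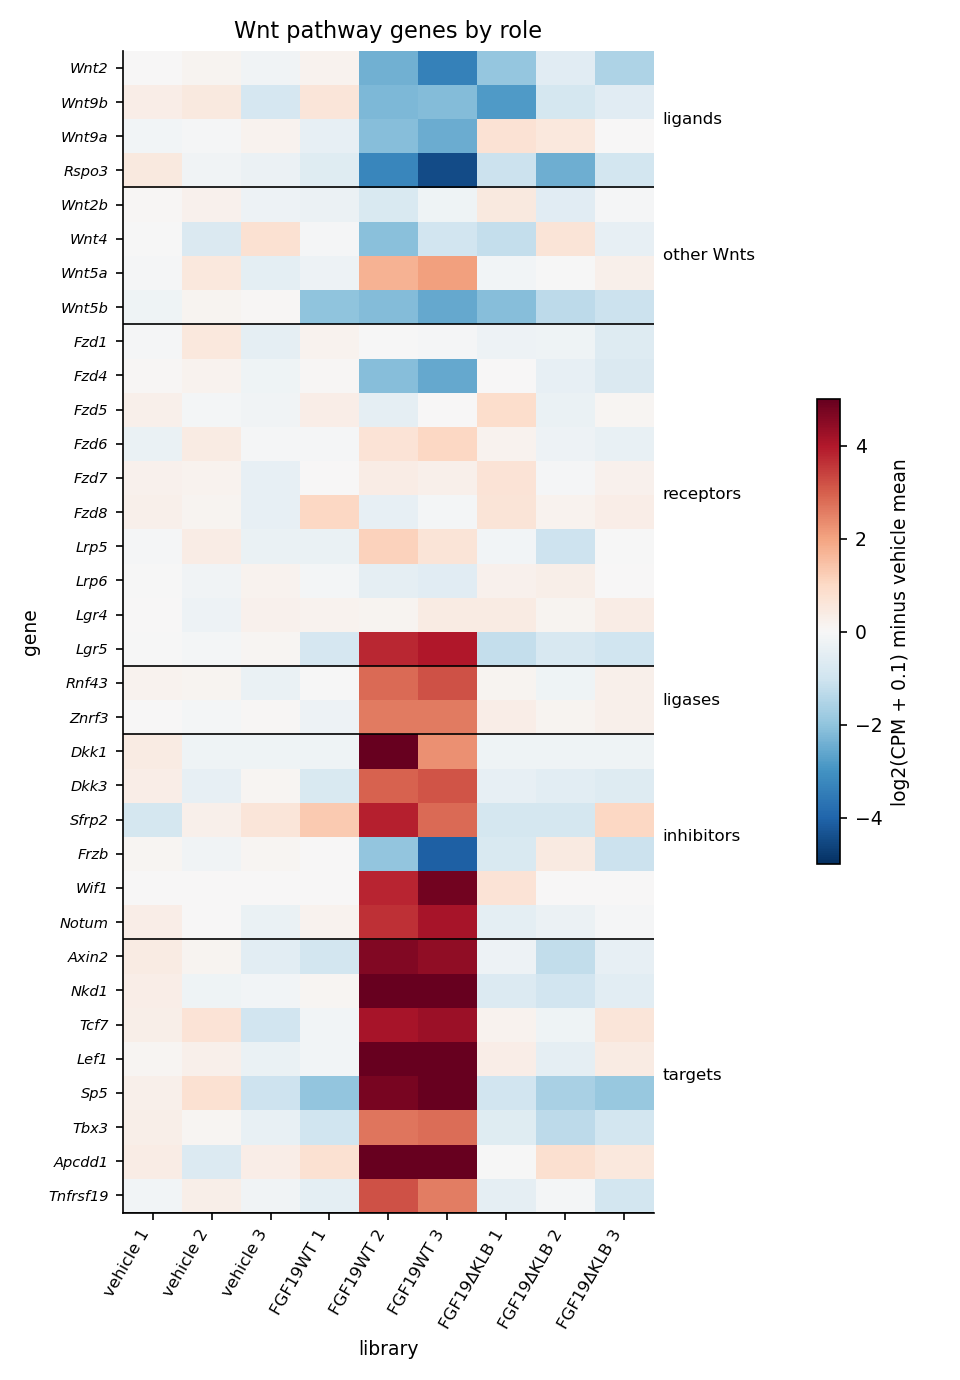
Heat map of log2(CPM + 0.1) minus the vehicle mean for the 34 pathway genes with a mean of at least 0.3 CPM, by role (rows) and library (columns); colours saturate at 5 in either direction. The ligand rows are low and most target rows highest in FGF19WT libraries 2 and 3, and Wnt5b is low in all 6 treated libraries.

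The ligands are products of minor cell types of the liver. In bulk liver, fewer cells of a type and less RNA per cell cannot be told apart. Of 12 pan-endothelial markers, 9 lay below the other 7 libraries in both FGF19WT 2 and 3, where 19% of all genes did. Their summed level was 118 to 133 CPM in vehicle, 146, 40.1 and 32.7 CPM in FGF19WT libraries 1, 2 and 3, and 61.8 to 105 CPM with FGF19ΔKLB, and none of the 12 was at 0 in any library. Cdh5, the endothelial cadherin, had 3.33 and 1.23 CPM in FGF19WT 2 and 3, against 5.96 to 14.2 CPM in the others. Esam, an endothelial adhesion molecule, went the other way, with 7.83 and 18 CPM against 2.41 to 7.34 CPM. None of the 12 was called in any of the 3 comparisons, where edgeR called 0.11%, 0.011% and 0% of all genes.

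Markers of other cell types lay low in the same libraries, and their part in the ligand differences was not tested. All 10 Kupffer cell markers, 9 of 10 periportal hepatocyte genes and 8 of 12 sinusoidal endothelial markers lay below the other 7 libraries in both FGF19WT 2 and 3. Of all genes, 19% did so. The periportal exception was Cdh1, at 61.5 and 55.0 CPM there and at 1.24 to 9.06 CPM elsewhere. The sinusoidal markers Gpr182 and Stab1 were highest of the 9 libraries in FGF19WT library 3, at 28.1 and 36.0 CPM. The summed Kupffer level was 77.3 and 35.8 CPM there and 217 to 386 CPM elsewhere, with Timd4 at 0 in both and Marco at 0 in FGF19WT 3. The summed periportal level was 296 and 326 CPM against 6958 to 9633 CPM, and the summed sinusoidal level 71.8 and 96.6 CPM against 126 to 277 CPM.

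Of 12 stellate cell markers, 11 lay below the other 7 libraries in both FGF19WT 2 and 3, where 19% of all genes did. The exception was Reln, which was above them at 175 and 212 CPM against 31.3 to 47.9 CPM. The other stellate gene Dcn, decorin, stood at 5.03 and 0.769 CPM there and at 35.3 to 186 CPM elsewhere, and Lhx2 and Hgf were at 0 in FGF19WT library 3. With FGF19ΔKLB, 10 of the 12 stellate markers lay below vehicle without overlap, the direction that 12.2% of all genes took, and 1 of the 12, Ngfr, fell in the fit of 6 libraries, which called 1.68% of all genes (-1.58, SE 0.20, adjusted p = 0.0187). The summed stellate level was 381 to 449 CPM in vehicle, 297, 213 and 230 CPM in FGF19WT libraries 1, 2 and 3, with Reln making up most of the last 2, and 128 to 262 CPM with FGF19ΔKLB. The part of these markers in the ligand differences was not tested beyond the ratios that follow.

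Of 6 markers of the central vein endothelium, 2, Cdh13 and Vwf, lay below the other 7 libraries in both FGF19WT 2 and 3, where 19% of all genes did. Lhx6 went against its list, with 27.1 and 18.7 CPM in those libraries and 0.864 to 5.90 CPM in the others, and Selp stood at 3.70 CPM in FGF19WT library 3. Vwf stood at 3.63 to 6.45 CPM in vehicle, at 7.00, 1.05 and 0.421 CPM with FGF19WT 1, 2 and 3, and at 2.30 to 2.69 CPM with FGF19ΔKLB. In FGF19WT library 1, Wnt2 and Wnt9b were the highest of 9 within counting error. Vwf and Cdh13 were the highest of 9 there too, Cdh13 at 2.02 CPM against 1.99 CPM in vehicle library 2. Kit, Thbd and Selp lay within the vehicle range in that library, and Lhx6 was the lowest of 9. The summed level of the 6 markers was 14.6 to 17.8 CPM in vehicle, 14.7, 30.5 and 23.2 CPM with FGF19WT and 7.05 to 10.6 CPM with FGF19ΔKLB. Lhx6 made up most of it in FGF19WT 2 and 3. Without Lhx6, a sum added after the data were seen, the other 5 markers came to 8.67 to 13.5 CPM in vehicle, to 13.9, 3.38 and 4.56 CPM in FGF19WT 1, 2 and 3, and to 5.21 to 8.61 CPM with FGF19ΔKLB.

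Each ligand was then set beside the mean log2 CPM of the 12 pan-endothelial markers in the same library. An exact permutation test of 3 against 3 libraries, two-sided, cannot give a p under 0.1, and with 12 such tests the smallest adjusted p was 0.24. Against vehicle, FGF19WT had a difference of -1.83 for Rspo3 (exact p = 0.1), -1.29 for Wnt2 (exact p = 0.2), -0.78 for Wnt9a (exact p = 0.1) and -0.39 for Wnt9b (exact p = 0.5), on the log2 scale with n = 3 per group. The log2 ratio of Rspo3 to these markers was thus lower in all 3 FGF19WT libraries, at -2.07, -3.05 and -3.81, than in vehicle, at -0.64, -1.42 and -1.39. Rspo3, Wnt9a and Wnt9b each held 4 counts in FGF19WT library 3 and had the same ratio of -3.81 there. In FGF19WT library 2 the 3 Wnt ligands held 4 to 8 counts, and Wnt2 held 0 in library 3. Below the floor of 12 counts these ratios depend on the prior count of 2. Beside the 12 sinusoidal markers, Rspo3 differed by -1.70 and Wnt9a by -0.65 (exact p = 0.1 each). Beside the 6 central vein markers, Lhx6 included, Rspo3 differed by -2.23 (exact p = 0.1) and Wnt9a by -1.19 (exact p = 0.2). There Wnt9a in FGF19WT library 1, at -1.69, lay within the vehicle range of -1.71 to -0.99. Beside the 12 stellate markers, a list added after the data were seen, the difference of Rspo3 was -0.49 (exact p = 0.2) and that of Wnt2 0.05 (exact p = 1). On log2(FPKM + 0.1) the pan-endothelial ratio of Rspo3 differed by -1.09 and that of Wnt2 by -0.25. Leaving out FGF19WT library 3 gave -0.71 for Wnt2. Without FGF19WT 2 and 3, library 1 alone gave -0.92 for Rspo3, -0.75 for Wnt9a, -0.09 for Wnt2 and 0.39 for Wnt9b.

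For FGF19ΔKLB against vehicle, Wnt2 beside the pan-endothelial markers differed by -0.83 (exact p = 0.1), with all 3 libraries below vehicle, and Rspo3 by -0.83 (exact p = 0.4) with overlap. Without FGF19ΔKLB library 2 the value of Rspo3 was -0.10 and without library 3 it was -1.34, and that of Wnt2 was -0.47 without library 1 and -0.42 on log2(FPKM + 0.1). Beside stellate markers Wnt2 differed by -0.33 (exact p = 0.6) and Rspo3 by -0.33 (exact p = 0.9). Beside the endothelial markers Wnt9a differed by 1.18 (exact p = 0.1): its log2 ratio was -2.07 ± 0.31 (SD, n = 3) with FGF19ΔKLB and -3.25 ± 0.22 in vehicle. Wnt9a itself differed by 0.50, with overlapping groups. All 12 endothelial markers had lower fitted levels with FGF19ΔKLB than in vehicle, with a median log2 difference of -0.65. Of these markers, 6 lay below vehicle without overlap, where 12.2% of all genes did. Wnt9a was also higher beside these markers with FGF19ΔKLB than with FGF19WT, by 1.96 (exact p = 0.1), by 1.93 against FGF19WT library 1 alone and by 0.97 on log2(FPKM + 0.1). Wnt9b differed from vehicle by -1.31 (exact p = 0.7), and by -0.09 without FGF19ΔKLB library 1, which held 0 counts.

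**Figure D4:**
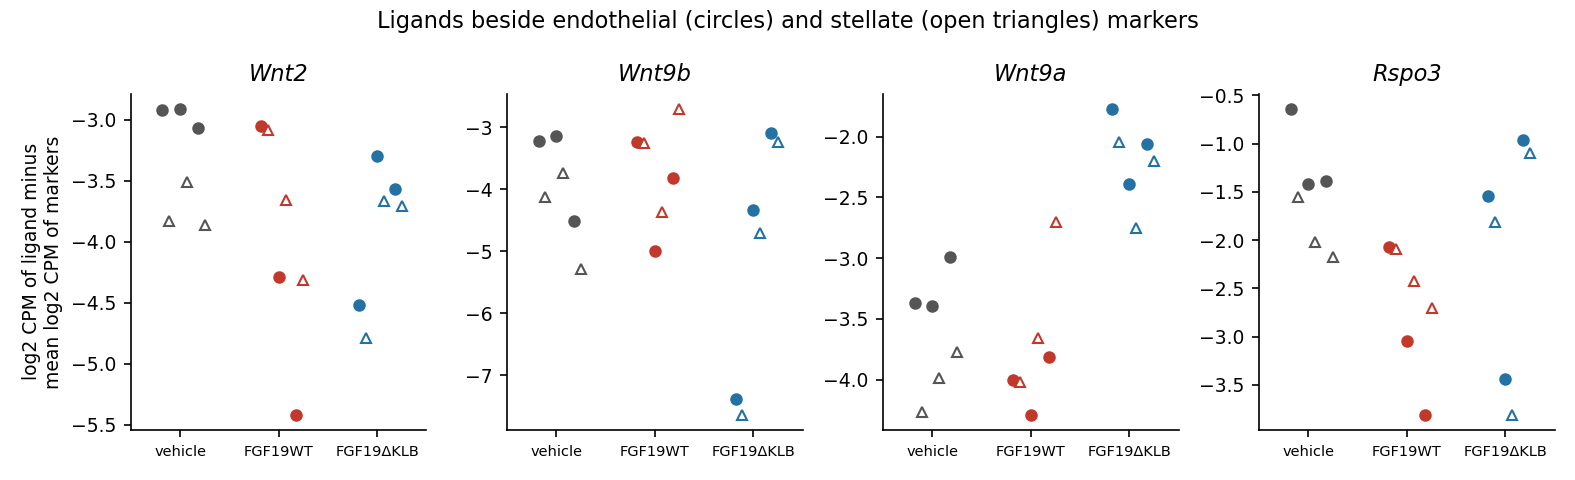
Log2 CPM of each ligand minus the mean log2 CPM of 12 pan-endothelial markers (filled circles) or 12 stellate cell markers (open triangles), 1 point of each kind per library, in order of replicate within a group. Beside endothelial markers Wnt9a is highest in the 3 FGF19ΔKLB libraries and Rspo3 is below vehicle in the 3 FGF19WT libraries; beside stellate markers the Rspo3 ranges of these groups overlap.

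The genes most like each ligand over the 9 libraries were ranked among 11695 protein-coding genes by Pearson r of log2 CPM, as a description. The r over the 7 libraries without FGF19WT 2 and 3 follows each in the same parentheses. Wnt2 was nearest to Cd52, a leukocyte surface protein (0.990, 0.980), Arap3 (0.986, 0.942) and 1700025G04Rik (0.983, 0.963). Cd52 had 7.86 to 8.37 CPM in vehicle, 8.57, 3.39 and 1.28 CPM in FGF19WT 1, 2 and 3, and 4.25, 7.55 and 4.59 CPM with FGF19ΔKLB. Like Wnt2, it was highest in library 1 of FGF19WT and in library 2 of FGF19ΔKLB. Wnt2 lay at or below the floor in FGF19WT 2 and 3 and FGF19ΔKLB 1, so a full order cannot be compared. Wnt9b was nearest to Reep6 (0.963, 0.950), Mup11 (0.931, 0.922) and Pcsk4 (0.916, 0.903), and Wnt9a to Gga2 (0.980, 0.681), Itgb3 (0.978, 0.626) and Abcd4 (0.976, 0.697). Rspo3 was nearest to St6galnac6 (0.977, 0.908), Gm5096 (0.976, 0.931) and Aldh7a1 (0.975, 0.931).

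Among the ligands themselves, Wnt2 and Rspo3 were the most alike over the 9 libraries (r = 0.873), followed by Wnt9a and Rspo3 (0.782), Wnt2 and Wnt9b (0.764) and Wnt2 and Wnt9a (0.741). Over the 7 libraries Wnt2 and Wnt9b were the most alike (0.832) and Wnt2 and Rspo3 stood at 0.408, while Wnt9a turned to -0.612 with Rspo3, -0.682 with Wnt2 and -0.862 with Wnt9b. Wnt9b and Wnt9a were the least alike over the 9 too (0.312), and they parted most in FGF19ΔKLB library 1, which held the highest Wnt9a level of the 9 and 0 counts of Wnt9b.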

How the data were processed

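RNA of 9 liver libraries, 3 per group, had been sequenced. The deposited table holds, per the file headers, an estimated count and an FPKM value for each gene and library, both made by the authors. Per the submitters' processing notes, Bowtie 0.12.2, HISAT2 2.0 and StringTie 1.3.0 were used and the build was mm8. All 28517 gene identifiers occur in GENCODE M21, and 28480 chromosomes and starts match it, so positions are given on GRCm38. Estimated counts were whole numbers and were used as deposited.

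Counts were fitted with edgeR 4.0.16 (R 4.3.3) by the quasi-likelihood test, with TMM factors, a robust fit, filterByExpr, group as the only term and all 9 libraries (6 residual degrees of freedom), which left 18142 genes. Genes were called at a Benjamini-Hochberg adjusted p under 0.05. The alternatives were fits of the 6 libraries compared, DESeq2 1.42.0, limma 3.58.1 on log2(FPKM + 0.1) and on log2(FPKM + 1), other filters and size factors, counts divided by 4, a replicate block and leaving out libraries. The scripts were tested on simulated data. Correlations used log2 CPM with a prior count of 2. Poisson intervals (95%) and the floor of 3 read pairs cover counting error only.

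The ligands, readouts and 20 gene lists (175 of 184 genes in the table) were chosen with earlier results of these data known. Named from each list were members called in any edgeR fit or, failing that, up to 2 members with the smallest p for FGF19WT against vehicle, along with other Wnt and R-spondin genes of at least 0.1 FPKM; the 3 genes most like each ligand came from those with at least 1 CPM. Other list members named here (Lgr4, Porcn, Fzd4, Fzd6, Lrp5, Frzb, Wnt6, Nkd2, Cdh5, Esam, Cps1, Dcn, Lhx2, Hgf, Cdh13, Selp, Vwf, Kit, Thbd, Cdh1, Gpr182, Stab1) were chosen after their values were seen. The upstream windows printed were chosen with their motif matches known. Dkk4, Rspo2, Rspo4, Sostdc1, Tf, Wnt1, Wnt3, Wnt3a and Wnt8a were not analysed here.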

Additional observations from a re-analysis of the deposited data

How the results depend on the processing

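Of 318 fold changes of the ligands and readouts recomputed under alternatives, 292 kept their direction and, where an adjusted p was given, their side of the threshold. The number of genes called moved more. For FGF19WT against vehicle (20 in the main analysis) it was 1 with 6 libraries, 1743 with DESeq2, 79 and 69 with limma on log2(FPKM + 0.1) and log2(FPKM + 1), and 0 to 5221 on leaving out 1 library, highest without FGF19WT 1. For FGF19ΔKLB against vehicle (2) it was 292 with 6 libraries, 371 with DESeq2, 37 and 51 with limma, 4 with counts divided by 4, 13 with the filter of 5 CPM, 11 with no filter, 303 without FGF19WT 2 and 3, and 0 to 172 on leaving out 1 library. For FGF19ΔKLB against FGF19WT (0) it was 1 with 6 libraries, 834 with DESeq2, 1 with limma on log2(FPKM + 0.1), 7 without FGF19WT 2 and 3, and 0 to 3846 on leaving out 1 library.

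Without FGF19WT 2 and 3, FGF19WT against vehicle turned to 0.20 for Wnt2, 0.56 for Wnt9b, -1.99 for Glul and -1.0 for Axin2, and FGF19ΔKLB against FGF19WT to -0.77 for Rspo3, 0.60 for Glul and 0.34 for Axin2; this leaves 1 FGF19WT library, assumed to vary like the other groups. DESeq2 called Glul (3.65 and -5.05 in those 2 comparisons) and Axin2 (3.95 and -4.62). The log2 difference of Wnt2 between FGF19ΔKLB and FGF19WT turned to 0.14 with limma. Leaving out 1 library gave, for FGF19WT against vehicle, -4.19 to -0.68 for Wnt2, -3.58 to -0.37 for Wnt9b, -3.29 to -1.26 for Wnt9a, -4.40 to -1.52 for Rspo3, 3.13 to 4.21 for Glul and 3.44 to 4.51 for Axin2. For FGF19ΔKLB against vehicle it gave -2.12 to -1.12 for Wnt2, -2.2 to -0.99 for Wnt9b, 0.34 to 0.69 for Wnt9a and -1.73 to -1.08 for Rspo3. The same comparison gave -1.62 to -1.11 for Glul and -0.88 to -0.4 for Axin2. For FGF19ΔKLB against FGF19WT it gave -0.86 to 2.74 for Wnt2 (0.14 without FGF19ΔKLB 1), -1.32 to 2.01 for Wnt9b, 1.77 to 3.79 for Wnt9a, 0.08 to 2.95 for Rspo3, -5.60 to -4.52 for Glul and -5.16 to -4.09 for Axin2.

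Replicate numbers did not pair the samples: deviations of same-numbered libraries correlated at -0.048 to 0.147. With a replicate block, 1 gene was called for FGF19WT against vehicle and 0 in both other comparisons, and FGF19ΔKLB against FGF19WT turned to 0.78 for Wnt2 and 0.24 for Wnt9b.

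Correlations of deviations from group means over all 9 libraries with Glul and Axin2 were -0.86 and -0.88 for Wnt2, -0.62 and -0.68 for Wnt9b, -0.96 and -0.94 for Wnt9a and -0.78 and -0.74 for Rspo3. They set FGF19WT 2 and 3 against FGF19WT 1. Without the 2 farthest of the 7 libraries, Wnt9a turned to 0.54 and 0.25. Deviations within vehicle and FGF19ΔKLB turned Wnt2 to -0.22 and -0.62 and Wnt9b with Axin2 to -0.15.

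Beside markers, 13 of 128 values turned. For FGF19WT against vehicle these were 0.52 (Wnt9b) and 0.04 (Wnt9a) on log2(FPKM + 0.1) and 0.05 (Wnt2), 0.94 (Wnt9b) and 0.55 (Wnt9a) beside stellate markers. For FGF19ΔKLB against FGF19WT, Wnt2 turned to -0.17 on log2(FPKM + 0.1) and -0.37 beside stellate markers, and against vehicle Wnt9b turned to 0.04 on log2(FPKM + 0.1). Without FGF19WT 2 and 3, Wnt2 turned to -0.75 for FGF19ΔKLB against FGF19WT and Wnt9b to 0.39 for FGF19WT against vehicle. Leaving out 1 library gave -0.84 to 0.10 for Wnt9b (FGF19WT against vehicle), and for FGF19ΔKLB against FGF19WT -0.13 to 1.05 for Wnt2 and -1.84 to 0.30 for Wnt9b. The cause of these changes was not tested. The ligands gave no value under limma on log2(FPKM + 1) or the filter of 5 CPM, which they did not pass. Values at or below 12 counts cannot be ordered at this depth.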
